A study of Homo sapiens with 6 samples.

Results

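The predicted sequences described here are small RNAs that the authors listed under a running number and an arm (mature or star) instead of a miRNA name. The members were chosen by their measured counts: every predicted row with a sum of at least 30 over the 6 libraries was kept, which gave 146 of 510 predicted rows in a table of 1007. The libraries came from extracellular vesicles that MHCC97H cells, a highly metastatic human hepatoma line, released into culture medium. The 3 control libraries came from cells without xanthatin and the 3 xanthatin libraries from cells given 4 µmol/L xanthatin, a sesquiterpene lactone of Xanthium plants, for 24 h. Per the labels' protocols, DMSO stood at 0.5% in all experiments, and cells of both groups grew in 5% fetal bovine serum plus 5% serum freed of exosomes, so part of the serum had not been freed of its own vesicles. The vesicles were pelleted for 70 min at 120000xg. The labels do not say whether the libraries of a group came from separate cultures, so the p-values measure the spread between these samples, which may be technical. In vesicle RNA, fewer vesicles carrying a sequence and fewer copies per vesicle cannot be told apart.

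A miRNA is cut from a hairpin precursor by Drosha and then Dicer, which leaves a duplex of both arms of the hairpin. One arm usually enters an Argonaute protein and guides it to target transcripts, and the other, often called the star, is usually degraded. Programs that predict miRNAs from reads look for a genomic hairpin with a stack of reads on one arm, and reads from the star arm count as added evidence of such processing. Fragments of other RNA classes can also form such stacks. The sequence and position of each predicted row were not analysed here, so the members are known only by number, and no function can be given for any of them.

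The control libraries held 63965 to 80088 miRNA counts and the xanthatin libraries 204520 to 267956. Depth thus differed between the groups, and a floor of 3 counts in a library equalled 34.7 to 39.9 CPM (counts scaled to library size with TMM factors) in control libraries and 12.5 to 16.7 CPM in xanthatin libraries. Known miRNAs that mark cell types or other sources also moved with the group. The 6 hepatocyte-enriched names took 11.4% to 14.5% of control counts and 2.88% to 3.52% of xanthatin counts, with miR-885-5p at 0 in xanthatin libraries, and 3 of 5 tested were lower and 1 higher. The blood and serum list, of which 3 of 6 names were in the table, took 0.619% to 1.19% and 0.0552% to 0.0705%, with miR-150-5p at 0 in xanthatin libraries. The 6 stromal and endothelial names took 0.413% to 0.559% and 0.0616% to 0.0880%, with miR-145-5p and miR-214-3p at 0 in xanthatin libraries. The list of names shared with fragments of rRNA, tRNA or other RNA, 3 of 8 in the table, took 0.448% to 0.686% and 0.0653% to 0.143%, with miR-3960 at 0 in control libraries. The part of these sources in the results below was not tested.

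The sum of counts chose the members, and it weights the deeper xanthatin libraries more. A sum of 30 was reached in both groups separately by 55 members, in the xanthatin libraries alone by 61, in the control libraries alone by 16, and only by adding both groups by 14. The members' sums ran from 30 to 120188 with a median of 83, and the member next to the top held 7212. Just inside the rule, novel315_mature, novel732_mature and novel733_mature each summed to 30. Just outside, novel308_mature and novel352_mature each summed to 29. The 364 predicted rows left out were thinly read, and 236 rows summed to under 10 counts, so the members held 98.3% of all predicted counts. Of the members, 14 were rows that joined several predicted numbers, whose reads the counts do not separate, and 3 were star rows.

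A single sequence, novel550_mature, held 71.0% of the members' counts. Control libraries held 3381, 2692 and 2206 of its counts and xanthatin libraries 36260, 46040 and 29609, which is 4.22%, 3.83% and 3.45% of control counts against 15.2%, 17.2% and 14.5% of xanthatin counts. The groups did not come near each other. All members together took 10.7%, 8.45% and 8.14% of control counts and 20.6%, 22.1% and 20.3% of xanthatin counts, a mean of 9.09% ± 1.38 (SD, n = 3) against 21.0% ± 0.97. The exact two-sided permutation test over the libraries gave p = 0.1, the smallest that 3 against 3 allows.

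With novel550_mature taken out of both the members and the total, the difference between the groups was no longer separate from the spread. The other 145 members took 6.73%, 4.80% and 4.86% of control counts and 6.31%, 5.91% and 6.77% of xanthatin counts, so control replicate 1 lay inside the range of the xanthatin libraries. The means were 5.47% ± 1.10 and 6.33% ± 0.43 (exact permutation p = 0.3). With both arms of novel643 left out as well, the means were 5.28% ± 1.12 and 5.04% ± 0.63 (exact permutation p = 0.8), which turned the direction. On the deposited TPM scale, which relates counts to a larger total of the authors that is not defined, the other members summed to 426, 327 and 319 TPM in the controls and 441, 412 and 441 TPM under xanthatin (exact permutation p = 0.2).

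**Figure D1:**
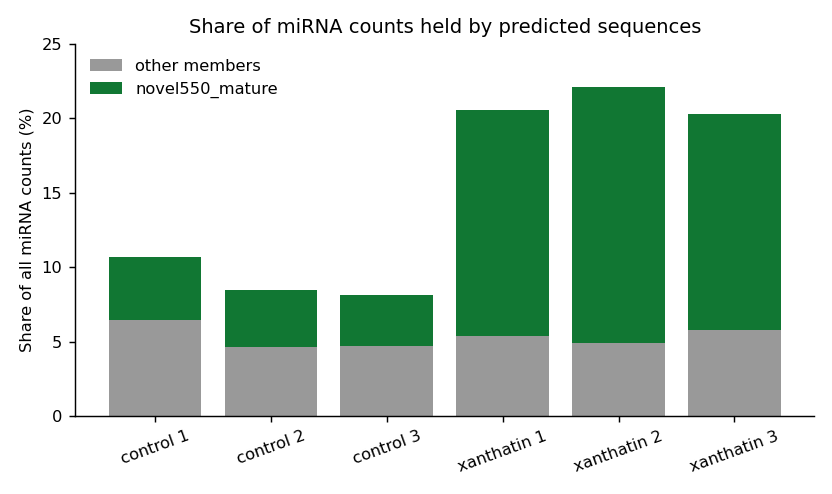
Share of all miRNA counts, in percent, held by the 146 predicted members in each of the 6 libraries, with novel550_mature in green stacked on the other 145 members in grey. The green part rises from 3.45% to 4.22% in control libraries to 14.5% to 17.2% in xanthatin libraries, while the grey part overlaps between the groups.

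More predicted rows were read in the deeper libraries, and at equal depth the groups overlapped. Of all 510 predicted rows, 224, 183 and 196 had at least 1 count in the controls and 318, 302 and 290 in xanthatin libraries. At the depth of the smallest library the expected numbers were 210, 177 and 196 in the controls and 220, 198 and 205 under xanthatin (exact permutation p = 0.4). For the 497 known rows the same values were 251, 252 and 271 against 259, 244 and 258 (exact permutation p = 0.7).

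The edgeR quasi-likelihood test was run on the 254 rows of the whole table that passed the count filter, and 76 of the 146 members were among them. Of these 76 members, 13 rose and 12 fell at an adjusted p under 0.05 (7.72e-05 for novel550_mature to 0.0472 for novel381_mature), and 51 did not pass. Over all tested rows the called share was 30.3%, with 13.4% in the upward and 16.9% in the downward direction. The members' shares of 17.1% and 15.8% lie near this background and are not a result about predicted sequences as a class. The median log2 fold change of the tested members was 0.20, beside -0.16 over all tested rows. That median was -0.12 with library totals in place of TMM factors. Without control replicate 1 it was 0.99, but over the 115 members that then passed the count filter, not the same 76. With totals only, 9 members rose and 15 fell, and when novel550_mature was left out of the fit, 16 rose and 11 fell. Without control replicate 2, or without any 1 xanthatin library, 8 members rose. A filter on the sum of 30 let all 146 members in, and 7 rose and 11 fell.

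All 25 called members had groups that did not overlap in CPM, but so did 54.7% of all tested rows and 19 members that were not called. Of the called members, 19 were read in every library. Only 15 of the 25 reached a sum of 30 in each group separately, 7 of those that rose and 8 of those that fell. Of the other 10, novel381_mature reached it in neither group alone. The rest (novel713_mature, novel287_mature, novel310_mature, novel438_mature, novel373_mature, novel139_mature, novel135_mature, novel108_mature and novel625_mature) reached it only in the group where they were higher. Their differences are given as a description, and their calls support nothing beyond the rule that chose them.

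**Figure D2:**
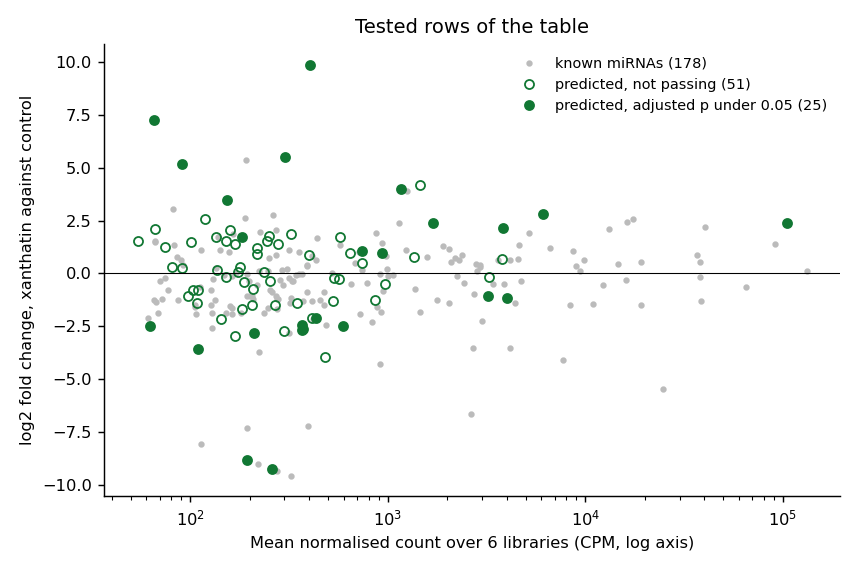
log2 fold change of xanthatin against control libraries (vertical axis) by mean CPM over the 6 libraries (horizontal log axis) for the 254 tested rows. Grey points are 178 known miRNAs, open green circles 51 predicted members that did not pass, and filled green circles the 25 that did, and the filled circles lie on both sides of 0.

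Among the 10 most abundant members, 4 rose, 2 fell and 4 did not pass. The mean of novel550_mature went up from 34166 ± 4891 to 175840 ± 13955 CPM (log2 fold change 2.36, SE 0.13, edgeR adjusted p = 7.72e-05). It kept its call in each of the 16 other fits that held it, at 2.03 to 2.65. novel643_mature had control counts of 130, 151 and 85 and xanthatin counts of 2044, 3103 and 1699. Its mean went up from 1515 ± 389 to 10671 ± 1934 CPM (log2 fold change 2.82, SE 0.25). These were the 2 members with the smallest adjusted p-values, and no control library approached any xanthatin library in either.

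novel2_mature had control counts of 68, 76 and 188 and xanthatin counts of 1289, 1538 and 1102. Its control spread was wide, since replicate 3 lay above the others, while its xanthatin libraries were close together at 6206 ± 163 CPM. The log2 fold change was 2.13 (SE 0.46), 2.88 without control replicate 3, and 1.95 without control replicate 2, where the call was lost (adjusted p = 0.0656 with edgeR). novel478_mature had control counts of 68, 25 and 41 and xanthatin counts of 605, 453 and 688, a rise of 2.37 on the log2 scale (SE 0.44) that was called in every alternative fit.

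novel260_mature and novel696_mature were the abundant members that fell. Their raw counts were alike in both groups, with 479, 495 and 372 against 496, 578 and 477 for novel260_mature and 460, 288 and 311 against 425, 480 and 396 for novel696_mature. In the deeper xanthatin libraries these counts are lower levels. novel260_mature went from 5583 ± 653 CPM down to 2467 ± 160 (log2 fold change -1.18, SE 0.16) and novel696_mature from 4367 ± 866 CPM down to 2069 ± 113 (-1.08, SE 0.20). The call of novel260_mature was kept in all 17 alternatives, and that of novel696_mature was lost with no count filter (-0.80, adjusted p = 0.126 with edgeR).

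The other abundant members did not pass the test. novel39_mature was the most even, at 3430 ± 38 CPM in control and 3088 ± 472 in xanthatin libraries (log2 fold change -0.15, SE 0.18). novel103_mature varied most among the xanthatin libraries, with 919, 554 and 1339 counts against 255, 287 and 159 (0.70, SE 0.44). In novel230_mature>novel263_mature, a row of 2 joined names, control replicate 2 held 1 count beside 137 and 106, and the xanthatin libraries held 240, 401 and 413 (0.76, SE 1.15).

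novel101_mature was not called in the main fit, but passed in some alternatives. It had control counts of 38, 0 and 1 and xanthatin counts of 631, 399 and 651 (log2 fold change 4.16, SE 1.41, edgeR adjusted p = 0.0676). Nearly all its control counts lay in replicate 1. With that library left out, control counts of 0 and 1 remained, and the member stood at 8.51, against a control level near the floor (edgeR adjusted p = 0.00294). It also passed with no count filter, without novel550_mature and with limma on log2 of TPM plus 1 (adjusted p = 0.00256 to 0.0476).

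**Figure D3:**
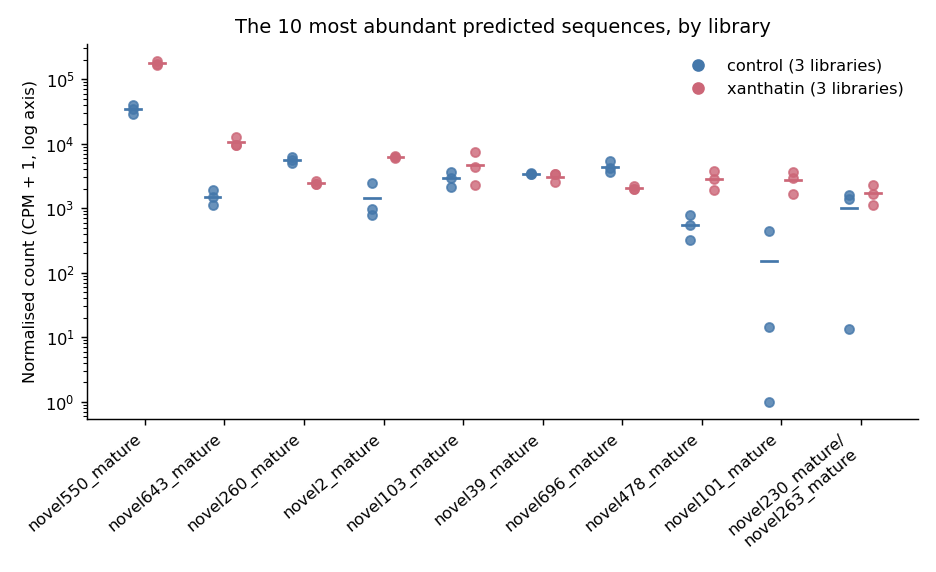
Normalised counts (CPM plus 1, log axis) of the 10 predicted members with the highest mean CPM, with 3 control libraries in blue, 3 xanthatin libraries in red and short lines for the group means. Among called members, the groups stand apart for novel550_mature, novel643_mature, novel2_mature and novel478_mature upward and for novel260_mature and novel696_mature downward. They also do not overlap for novel101_mature (upward) and, by a narrow margin, novel39_mature (downward), which were not called. A control library at 0 counts sits at 1 for novel101_mature.

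The other members that rose were of low or middle abundance. novel152_mature had control counts of 57, 45 and 49 and xanthatin counts of 240, 285 and 253 (log2 fold change 0.99, SE 0.26). novel80_mature had 39, 45 and 32 against 200, 241 and 194 (1.06, SE 0.29), and novel310_mature 6, 8 and 6 against 57, 60 and 58 (1.74, SE 0.49). Of these, novel310_mature reached the sum of 30 only in the xanthatin libraries, so its difference is described only. All 3 had tight replicates and adjusted p-values near the threshold (0.0341, 0.0378 and 0.0414 with edgeR). Each lost its call with library totals only, and also when any 1 of the 6 libraries was left out. In the latter fits the edgeR adjusted p was 0.0663 to 0.0962, 0.0570 to 0.121 and 0.0843 to 0.129. Their log2 fold changes there were 0.94 to 1.08, 0.98 to 1.29 and 1.58 to 1.98. The fits without a control library also tested more members, 115 to 122 against 76, so the adjustment changed along with the samples.

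Members almost unread in control libraries entered through their xanthatin counts, so their differences are described only. novel713_mature was at 0 in every control library and had xanthatin counts of 85, 234 and 188, at least 64.4-fold higher against a floor of 3 counts over the control group. novel287_mature had 2, 1 and 0 counts against 116, 108 and 139, a ratio of 46.1 (exact 95% Poisson interval 15.6 to 225), and its fitted log2 fold change of 5.49 was 6.30 without control replicate 1. novel438_mature had 3, 2 and 1 counts against 53, 91 and 39 (log2 fold change 3.47, SE 0.65), and lost its call with limma-voom (adjusted p = 0.0762).

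The same holds for novel373_mature and novel139_mature. novel373_mature had 1 control count, in replicate 2, and 41, 31 and 38 xanthatin counts, a ratio of 41.9 (exact 95% Poisson interval 7.37 to 1670). Its call was lost without control replicate 1 or 3 (adjusted p = 0.0654 and 0.0666 with edgeR), and its fitted log2 fold change of 5.15 was 7.84 without control replicate 2. It failed the count filter without xanthatin replicate 1 or 3, and lost its call with no count filter and with the filter on the sum of 30 (adjusted p = 0.0809 and 0.0672). novel139_mature had 0 control counts and 17, 21 and 41 xanthatin counts, at least 10.03-fold higher. Its call was lost without any 1 control library (adjusted p = 0.0532 to 0.0601), and it failed the count filter without any 1 xanthatin library. The call was also lost with no count filter, with the filter on the sum of 30 (adjusted p = 0.0806 and 0.0658 with edgeR) and with limma-voom (adjusted p = 0.0555).

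Of the 12 members that fell, novel260_mature and novel696_mature were described above. In 9 of the 12, every xanthatin library held fewer raw counts than every control library, although the xanthatin libraries were deeper. novel638_mature had control counts of 97, 88 and 60 and xanthatin counts of 39, 29 and 42, that is 1011 ± 184 CPM against 179 ± 57 (log2 fold change -2.49, SE 0.40), and was called in every alternative fit. novel135_mature and novel108_mature entered through their control counts and are described only. novel135_mature had 26, 60 and 38 counts in control and none in xanthatin libraries, at least 108-fold lower against 3 counts over the group. novel108_mature had 24, 41 and 28 counts against 0, at least 81.4-fold lower.

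A group of 4 members fell by similar amounts from similar levels. novel452_mature had control counts of 70, 42 and 43 and xanthatin counts of 22, 17 and 23 (log2 fold change -2.65, SE 0.45). novel133_mature had 74, 37 and 46 against 29, 18 and 18 (-2.62, SE 0.47), and novel222_mature 57, 45 and 48 against 18, 26 and 26 (-2.46, SE 0.41). novel110_mature had 67, 55 and 48 against 35, 26 and 39 (-2.10, SE 0.42). Control means of the 4 lay between 622 and 703 CPM and xanthatin means between 101 and 163 CPM. Leaving out any 1 library ended none of these 4 calls, while no count filter ended all of them (adjusted p = 0.0546 to 0.121 with edgeR).

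The remaining falls rested on fewer counts. novel117_mature had 31, 30 and 28 counts against 16, 13 and 5 (log2 fold change -2.79, SE 0.57), and its call was lost without control replicate 2 or 3 (adjusted p = 0.0578 and 0.0558 with edgeR). novel625_mature had 19, 14 and 16 against 3, 2 and 5 (-3.55, SE 0.71), and its call was lost without any 1 control library or xanthatin replicate 1 (adjusted p of up to 0.0627). novel381_mature had 11, 10 and 5 counts against 2, 7 and 3 (-2.48, SE 0.74), so its raw counts overlapped between the groups. It lost its call without any 1 library (adjusted p = 0.102 to 0.239) and with RLE scaling, DESeq2 and limma-voom.

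**Figure D4:**
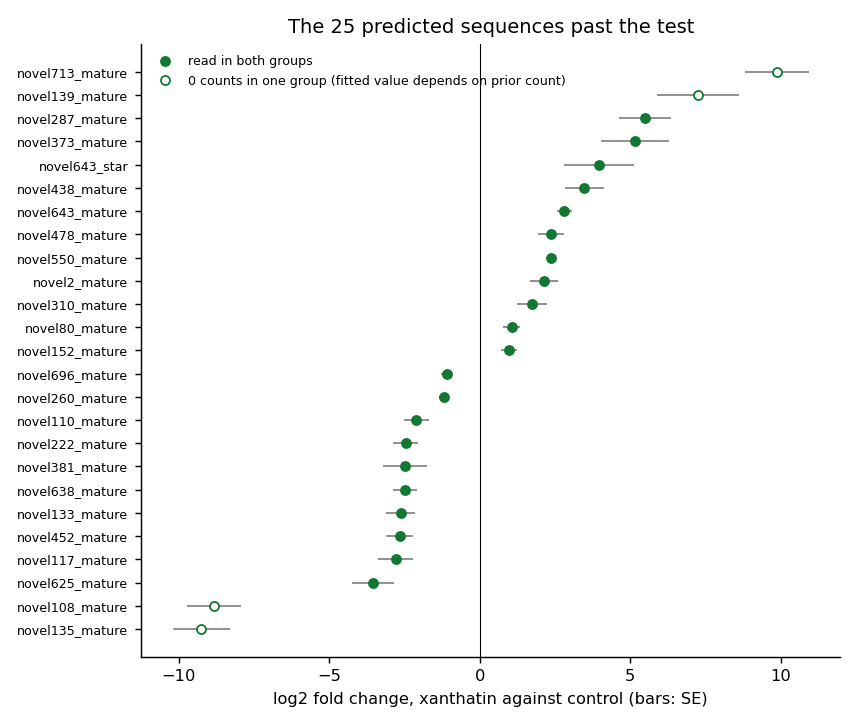
log2 fold change of xanthatin against control libraries for the 25 predicted members past the test, with bars for the SE. Open circles mark 4 members with 0 counts in 1 group, whose fitted value depends on the prior count, and 13 members lie above and 12 below 0.

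Of the 51 tested members that did not pass, 28 lay above and 23 below 0. Their median SE was 0.81 on the log2 scale, against 0.47 for the called members. The smallest adjusted p among them was 0.0540 with edgeR. By mean CPM, 3 of 9 tested members were called under 100, 6 of 34 from 100 to 300, 9 of 22 from 300 to 1000 and 7 of 11 over 1000. Known miRNAs had 0 of 16, 7 of 56, 11 of 45 and 34 of 61 in the same ranges. The 3 called members under 100 were novel373_mature, novel139_mature and novel381_mature, and none reached the minimum sum in each group separately. From 100 to 300 only novel117_mature did so among the 6 called, and from 300 to 1000 novel713_mature and novel287_mature did not. Those calls follow from the rule, so the low ranges cannot compare members with known miRNAs. The values are a description with no test.

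Only 8 star rows were in the table, and novel643 was the sole number with a star and a mature row of its own that were both members. Control libraries held 1, 2 and 29 counts of the star row and xanthatin libraries 381, 524 and 468. Control replicate 3 stood apart from the other control libraries in the star arm, while its mature arm, at 85 counts, was the lowest of the 3. The star arm rose at the edge of the threshold (log2 fold change 3.97, SE 1.16, edgeR adjusted p = 0.0457), and stood at 6.90 without control replicate 3. Removing any 1 of the other 5 libraries ended its call (adjusted p = 0.0663 to 0.107), and so did scaling by totals or by known names only (adjusted p = 0.0597 and 0.0524). The total implied by the TPM and the filter on the sum of 30 ended it too (adjusted p = 0.0524 and 0.0740 with edgeR).

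The star share of novel643 reads was 0.763% (95% Wilson interval 0.135% to 4.20%), 1.31% (0.359% to 4.64%) and 25.4% (18.3% to 34.1%) in control replicates 1, 2 and 3. The xanthatin libraries had 15.7% (14.3% to 17.2%), 14.4% (13.3% to 15.6%) and 21.6% (19.9% to 23.4%). The xanthatin libraries thus lay between the control libraries, and a permutation test did not separate the groups (mean 9.17% ± 14.1 against 17.3% ± 3.8, n = 3, exact p = 0.4). Unequal change of both arms was also tested in the fit over all rows, where 22 pairs had both arms tested and 13.6% of pairs were called. For novel643 the star arm's log2 fold change exceeded that of the mature arm by 1.15 (adjusted p = 0.384 with edgeR). Without control replicate 3 the difference was 4.20 (adjusted p = 0.00193), so the call turned on this library. The 3 called pairs were miR-92b, miR-99b and miR-125a, known miRNAs whose arms lay on opposite sides of 0, with log2 fold changes of the 3p and 5p arms of 0.47 and -0.99, -2.81 and 0.37, and -1.04 and 0.56. None was called without control replicate 2.

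The other numbers with a member row and both arms in the table were uneven. In novel550 and novel287 the star arm was nearly unread. novel550_star had 6 counts beside 120188 of the mature arm, a share of 0.00499% (95% Wilson interval 0.00229% to 0.0109%). novel287_star had 2 counts beside 366, a share of 0.543% (0.149% to 1.96%). In novel242 and novel145 the arms came from different libraries: novel242_mature had 39 counts in control replicate 1 and novel242_star 6 in xanthatin replicate 2, and novel145_star had 50 counts in control replicate 1 and novel145_mature 10 in xanthatin replicate 2. novel1_star had 17 counts in control replicate 3 and 36 in xanthatin replicate 1 and none elsewhere, while its mature arm, joined with novel221 and novel256, was read in all libraries at 3 to 13 counts.

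Of 131 predicted numbers with a member row of a single name, 5 had both a mature and a star row in the table. Of 174 known miRNAs with a row of at least 30 counts and an arm in its name, 63 had the other arm in the table too. These are 3.82% and 36.2%, given as a description with no test, since the rows are not replicates and the authors' criteria for listing a star row are not stated.

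A large part of the members was read in some libraries only. Counts above 0 in all 6 libraries were found for 64 of the 146 members, in 5 libraries for 16, in 4 for 19, in 3 for 22, in 2 for 20 and in a single library for 5. Of the 70 members that failed the count filter, with sums of 30 to 333, 46 had over 50% of their summed CPM in a single library, and 11 of the 76 tested members did. In 12 members a single library held over 90%.

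Gaps within a group were common. In 61 members (41.8%) a library had 0 counts while another library of the same group had at least 10, in control for 43 and in xanthatin libraries for 35. No called member had such a gap, but a gap widens the spread within a group and so works against a call. Its absence there is thus no sign of the quality of the called members. Among known rows with a sum of at least 30, 70 of 243 (28.8%) had such a gap. Fewer members than known rows had high sums, and at equal sums the order of the shares went both ways. At sums of 30 to 49, 12 of 43 members and 7 of 46 known rows were read in all libraries. At 50 to 99 it was 6 of 38 and 10 of 43, and from 100 to under 300, 24 of 38 and 39 of 60. At 300 or more it was 22 of 27 members and 93 of 94 known rows.

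**Figure D5:**
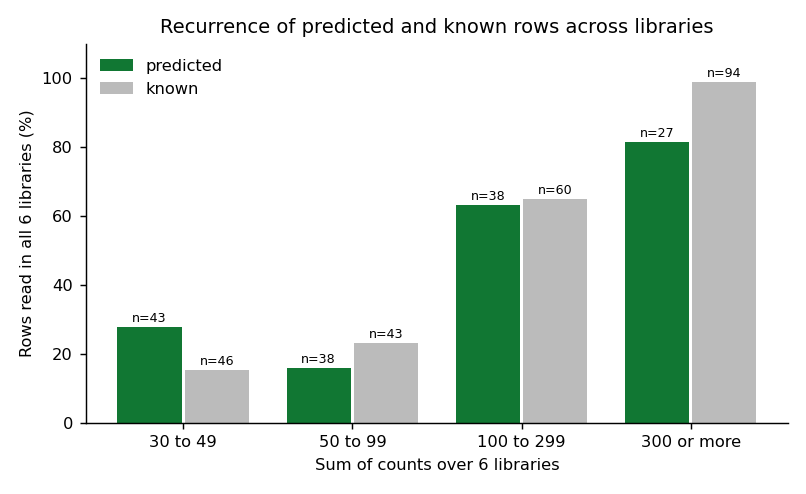
Percent of rows with at least 1 count in all 6 libraries, by the sum of counts, for predicted members in green and known miRNAs in grey, with the number of rows above each bar. Predicted rows are at 27.9% for sums of 30 to 49 and lower, at 15.8%, for 50 to 99, and at 300 or more the predicted bar reaches 81.5% and the known bar 98.9%.

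The 5 members above 300 counts that missed a library or more were novel101_mature, novel713_mature, novel287_mature, novel325_mature>novel474_mature and novel420_mature>novel698_mature. The last 2 are rows of joined names. novel325_mature>novel474_mature had control counts of 0, 67 and 0 and xanthatin counts of 66, 146 and 113. novel420_mature>novel698_mature had 175, 158 and 0 counts in control and none in xanthatin libraries, at least 291-fold lower against 3 counts over the group. It failed the count filter, which asks for enough counts in 3 libraries, so it has no test, and its control replicate 3 was at 0 like the xanthatin libraries.

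Some uneven members were high in the libraries of the same replicate number. These were chosen after their values were seen. novel61_mature had control counts of 289, 2 and 3 and xanthatin counts of 464, 15 and 32, so replicate 1 was the high library of both groups. novel654_mature had 155, 1 and 5 against 249, 41 and 35, and novel357_mature 94, 2 and 1 against 46, 3 and 0. novel730_mature had 19 counts in control replicate 2 and 24 in xanthatin replicate 2 and none elsewhere. In each of them the control libraries lay further apart in CPM than the group means. The xanthatin libraries did so too, except in novel357_mature.

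Members read in a single group could enter only through that group, so their difference follows from the rule and supports nothing. There were 17 members with 0 counts in all control libraries. Besides novel713_mature and novel139_mature, 5 were read in all 3 xanthatin libraries: novel24_mature with 58, 39 and 4 counts, novel739_mature with 64, 17 and 7, novel493_mature with 19, 24 and 11, novel194_mature with 17, 4 and 13, and novel409_mature with 17, 1 and 16. The other 10 were read in only 2 xanthatin libraries: novel172_mature>novel243_mature, novel539_mature, novel752_mature, novel735_mature, novel188_mature, novel140_mature, novel366_mature, novel673_mature, novel156_mature and novel142_mature. The bounds of the 15 untested members were at least 4.06-fold to 12.8-fold higher, against the floor of the shallower control libraries.

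There were 9 members with 0 counts in all xanthatin libraries, and only novel135_mature and novel108_mature of them were read in all 3 control libraries. novel611_mature had 31 and 1 counts in control replicates 1 and 2. In 5 a single control library held every count: novel145_star with 50, novel588_mature with 44, novel242_mature with 39 and novel584_mature with 32 in replicate 1, and novel55_mature>novel62_mature with 40 in replicate 2. Of these 5 single-library members, 4 thus came from the same library, control replicate 1. The control libraries held 80088, 70228 and 63965 miRNA counts in the order of their replicates, and a part of depth in this was not tested.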

How the data were processed

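RNA of 18 to 30 nt from vesicles was sequenced in 3 control and 3 xanthatin samples. Per the file headers, the authors deposited a whole-number count and a TPM value per name and library, not pooled. The deposited counts were not normalised, and the deposited TPM was the count divided by 1 constant per library. The submitters' processing notes name hg38. For the aligner and the predictor, the sources used here give no name.

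Counts of all 1007 rows were fitted together with edgeR 4.0.16 (R 4.3.3): TMM scaling, filterByExpr with a minimum count of 10, the quasi-likelihood F test on treatment, and Benjamini-Hochberg adjustment over the 254 tested rows with a threshold of 0.05. Each SE was derived as the size of the log2 fold change over the root of its F value, and CPM uses TMM-scaled library sizes. Unequal change of both arms of 1 name was tested with diffSpliceDGE of edgeR, adjusted over 22 pairs. Shares were compared with exact permutation tests. Both models were also run on simulated counts drawn with dispersions estimated from these data, and no support is taken from that run. A group at 0 counts gives a bound against 3 counts over the group. Intervals (95%) and bounds reflect counting error alone, as no molecular identifiers are described.

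The members, the marker lists and the tests were chosen with earlier results of these data known. Named members are those past the test, the 10 of highest mean CPM, both arms of a number, those read in 1 group only, and those nearest to the minimum sum. Any others were chosen after their values were seen. Alternatives used other scalings (RLE, totals only, known names only, the total implied by the TPM) and filters (none, a sum of at least 30). They also used other tools (DESeq2 1.42.0, and limma 3.58.1 as voom or on log2 of TPM plus 1), a replicate block, the removal of novel550_mature or of each library, and other minimum sums. Members ranked by mean CPM, and the removal of both novel643 arms, were added after the data were seen.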

Additional observations from a re-analysis of the deposited data

How the results depend on the processing

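Of the 25 called members, 8 kept direction and call under each alternative that could be fitted for them (novel550_mature, novel643_mature, novel260_mature, novel478_mature, novel713_mature, novel287_mature, novel638_mature and novel135_mature), and 17 lost the call under at least 1. Of the 8, novel713_mature, novel287_mature and novel135_mature reached the sum of 30 only in the group where they were higher, so their calls are no sign of stability. No called member changed direction. novel39_mature, which was not called, was at 0.12 with no count filter and 0.0043 with DESeq2. Against 13 in the main fit, the number of members that rose was 7 with a filter on the sum of 30. It was 8 to 10 with 1 library left out and reached 18 with DESeq2. The number that fell, 12 in the main fit, was 6 with no count filter and 15 with library totals only. Rises over all tested rows numbered 34 in the main fit. They were fewer with library totals only (22), a filter on the sum of 30 (20) and a replicate block (21). With 1 library left out there were 22 to 30. They were more with RLE scaling (40), without novel550_mature (42) and with DESeq2 (50). The fits without control replicate 1, 2 or 3 tested 115, 121 and 122 members, against 76 in the main fit. The members' median ran from -0.013 to 0.99 with 1 library left out. Called arm pairs ranged from 0 to 7 in the same way. The difference in share between groups without novel550_mature was -0.24 percentage points once both novel643 arms were left out. The scaling moved the median over all tested rows from -0.16 to -0.49 with library totals only. The cause of these changes was not tested. Some alternatives held fewer samples or rows. Others tested more members, 146 with no count filter or with the filter on the sum of 30, and 141 with DESeq2.

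The labels number the libraries 1 to 3 in each group, with no statement that a number marks a shared culture. Deviations from the group means of same-numbered libraries correlated at 0.12, -0.01 and -0.05 over 254 tested rows, on which the fit was made. The correlations were 0.43, 0.33 and 0.19 over the 76 members and -0.16, -0.22 and -0.16 over the 178 known rows. The values over all tested rows thus mix members above 0 with known rows below 0, and cannot show that the samples were unpaired. The main fit took no pairing into account. With the replicate block, 9 members rose and 9 fell, 17 of the 25 calls were kept, and the members' median was 0.96. The 8 not called with the block were novel152_mature, novel80_mature, novel310_mature, novel373_mature, novel139_mature, novel381_mature, novel108_mature and novel625_mature (adjusted p = 0.0501 for the last 2 and up to 0.163 for the others, with edgeR). Depth limits the control side: 0 counts in a control library allow up to 34.7 to 39.9 CPM.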
